A study of Mus musculus with 6 samples.

Results

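The 9 genes described here encode the giant sarcomere protein titin and proteins of the Z-disc and M-band that anchor the filaments of the cardiomyocyte (CM): Ttn, Nebl, Actn2, Myoz2, Tcap, Ldb3, Csrp3, Myom1 and Myom2. They were chosen by name out of 21911 protein-coding genes of GENCODE M21 (mm10), and every Omni-ATAC-Seq peak that overlapped a gene body or the 10 kb on either side was taken. The 6 peak lists held 717 such peaks, and merging the peaks that touch across libraries gave 208 of the 169872 accessible regions of the series. Omni-ATAC-Seq cuts open chromatin with a transposase, so a peak marks DNA that was accessible in the nuclei and is not a measure of RNA.

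All libraries came from whole P1 (postnatal day 1) mouse hearts whose nuclei had passed a 2.2M sucrose cushion, with 50000 nuclei per library and 2 biological replicates in each of the 3 groups. Input nuclei came from wild type hearts and were not purified further. PCM1 nuclei also came from wild type hearts and were enriched by magnet-assisted nuclear immunoprecipitation (MAN-IP) with an antibody to PCM1, a protein that surrounds the nucleus of CMs. Myc nuclei came from Nkx2-5 Cre/+; R26RSun1-Myc-Egfp/+ hearts and were enriched by MAN-IP with a Myc antibody. In these hearts Cre is driven from Nkx2-5, a gene of cardiac progenitors whose descendants include endothelial and smooth muscle cells as well as CMs, and cells of this lineage carry the Myc-tagged SUN1 protein on the nuclear membrane. The Myc libraries thus differed from the other 4 in genotype as well as in antibody, and these cannot be told apart.

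In the sarcomere, alpha-actinin (Actn2) cross-links thin filaments at the Z-disc, where telethonin (Tcap) and the actinin partners Ldb3, Myoz2, Csrp3 and Nebl also sit. Titin runs from the Z-disc to the M-band, and the myomesins (Myom1, Myom2) bind titin and myosin in the M-band. In CMs such genes are transcribed at a high level, and regulatory elements of muscle genes often lie in their introns and carry sites for MEF2, SRF (the CArG box), GATA, TEAD and NKX2-5 factors.

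The lists held 75336 to 131500 peaks, and the genome-wide read level behind them was 4.38 times as high in the deepest library (Input 1) as in the shallowest (PCM1 2). Peaks were therefore compared by rank: each was given its rank percentile by q-value within its own library, where 100 is the strongest peak and 0 stands for no peak. Values by library are given in the order Input 1, Input 2, Myc 1, Myc 2, PCM1 1, PCM1 2. The groups were not tested against each other, because the smallest one-sided exact p that 2 libraries against 4 can give is 0.0667. Orders of the libraries are therefore described, and the share of all genes or regions in the same order is given beside the counts. The strongest peaks of the 6 CM markers (Myh6, Tnnt2, Tnni3, Actc1, Ryr2 and Pln) had summed percentiles of 569 to 578 in Input, 543 to 552 in Myc and 568 to 569 in PCM1, and all 6 had a start-site peak in every library. The 6 fibroblast markers summed to 383 to 489 in Input, 453 to 478 in Myc and 380 to 403 in PCM1. The 6 smooth muscle markers summed to 405 to 479, 468 to 485 and 404 to 430, and the 6 endothelial markers to 526 to 558, 534 to 542 and 539 in both PCM1 libraries. None of the 4 immune markers had a start-site peak in any library, and Adgre1 had no peak at all. Both Myc libraries ranked below the other 4 at 4 of the 6 CM markers and 2 of 5 skeletal muscle markers (Myod1, Myf5, Myog, Tnnt3 and Ckm). They did so at 2 of 6 endothelial and 1 of 6 fibroblast markers. The count was 0 of 6 smooth muscle, 0 of 4 epicardial and 0 of 4 immune markers. Of all genes with a peak, 6.42% had this order. In these bulk libraries the share of nuclei of one cell type and the accessibility per nucleus cannot be told apart, and the part of cell composition in the results below was not tested.

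The sequences under the summits show what some strong elements of these genes look like. Regions of 200 bases around the summit are printed on the strand of the gene from the RefSeq copy of the genome (GRCm38.p6). The elements were chosen among those that hold no UTR and are not always the strongest of their gene. Capitals mark matches, on either strand, to the MEF2 and CArG consensus (by name) and to AGATAA (the site of GATA factors), CATTCC (TEAD factors) and TNAAGTG (NKX2-5). No matches overlap in the stretches shown. A match is a description of the letters and not a binding site.
Ttn intron 223, 175.906 kb into the gene (chr2:76806449-76806648, minus strand): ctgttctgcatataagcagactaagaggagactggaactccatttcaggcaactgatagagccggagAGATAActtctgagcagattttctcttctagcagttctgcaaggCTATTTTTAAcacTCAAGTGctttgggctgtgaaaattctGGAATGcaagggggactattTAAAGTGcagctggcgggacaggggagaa
Ttn intron 1, 570 bp after the main start site (chr2:76981785-76981984, minus strand): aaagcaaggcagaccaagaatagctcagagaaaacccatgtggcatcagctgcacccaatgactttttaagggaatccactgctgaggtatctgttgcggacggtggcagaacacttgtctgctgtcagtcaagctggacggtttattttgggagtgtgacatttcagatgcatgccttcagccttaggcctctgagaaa
Actn2 intron 12 (chr13:12283942-12284141, minus strand): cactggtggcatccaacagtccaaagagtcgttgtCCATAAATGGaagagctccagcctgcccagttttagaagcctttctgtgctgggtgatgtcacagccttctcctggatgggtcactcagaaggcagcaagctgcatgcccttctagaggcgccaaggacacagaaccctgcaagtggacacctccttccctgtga
Ldb3 intron 5, the strongest region of that gene (chr14:34574227-34574426, minus strand): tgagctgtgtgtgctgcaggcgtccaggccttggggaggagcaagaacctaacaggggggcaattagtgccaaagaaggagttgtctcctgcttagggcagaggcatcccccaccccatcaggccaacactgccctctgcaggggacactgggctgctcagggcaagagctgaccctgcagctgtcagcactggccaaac
Ldb3 intron 9 (chr14:34544657-34544856, minus strand): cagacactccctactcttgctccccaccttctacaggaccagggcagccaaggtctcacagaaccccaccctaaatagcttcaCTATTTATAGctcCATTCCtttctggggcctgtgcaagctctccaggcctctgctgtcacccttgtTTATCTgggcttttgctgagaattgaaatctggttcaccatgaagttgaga
Nebl, between its upstream and main start sites (chr2:17624024-17624223, minus strand): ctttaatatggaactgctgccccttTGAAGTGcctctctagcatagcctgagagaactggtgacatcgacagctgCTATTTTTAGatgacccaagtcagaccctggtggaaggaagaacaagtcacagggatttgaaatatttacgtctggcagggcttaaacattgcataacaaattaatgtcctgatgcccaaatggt
Myom1 intron 5 (chr17:71038936-71039135, plus strand): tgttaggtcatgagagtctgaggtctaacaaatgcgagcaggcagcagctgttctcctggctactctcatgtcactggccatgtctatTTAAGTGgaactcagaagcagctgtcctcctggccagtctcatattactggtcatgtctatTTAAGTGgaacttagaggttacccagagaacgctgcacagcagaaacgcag
Myom2 intron 1, 1380 bp after the start site (chr8:15058933-15059132, plus strand): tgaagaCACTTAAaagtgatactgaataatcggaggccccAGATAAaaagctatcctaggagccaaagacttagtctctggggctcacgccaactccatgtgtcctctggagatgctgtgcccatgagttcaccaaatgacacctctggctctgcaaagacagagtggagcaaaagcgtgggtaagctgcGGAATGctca

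The element in intron 223 of Ttn held 5 matches, to 4 of the 5 motifs, whereas the elements in Ttn intron 1 and Ldb3 intron 5 held none. Some elements without UTR that had the highest mean percentile of their gene are not printed. Those of Actn2 (intron 1), Tcap (3′ of the gene) and Myom2 (intron 1) held no match, and that of Csrp3 (3′ of the gene) held 2 to AGATAA. Of the 70 member regions that were called in all 6 libraries, 8 held a MEF2 match (11.4%), 4 a CArG box (5.71%), 15 AGATAA (21.4%), 18 CATTCC (25.7%) and 13 TNAAGTG (18.6%). Over all 48861 regions called in every library the shares were 5.55%, 1.20%, 10.2%, 14.2% and 9.29%. All 5 shares were thus higher in the member regions. Start-site regions are rich in G and C, so the shares were also taken over 1 kb from every annotated start site (TSS) of a protein-coding gene. There 6 of 53 member regions held MEF2 (11.3%, against 7.18% of 35296 regions), 2 CArG (3.77% against 1.31%), 11 AGATAA (20.8% against 13.0%), 14 CATTCC (26.4% against 16.7%) and 11 TNAAGTG (20.8% against 11.2%). The median GC content was 52% in the member regions and 54.5% in all. The 4 member regions with a CArG box were in Actn2 (intron 12, printed above), Ldb3 (the start site and exon 14) and Myom1 (the main start site). The MEF2 matches were at Ttn (intron 223 and the start site), Nebl, the Myoz2 start site, Ldb3 intron 9 and 3 regions of the Myom1 window.

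Of the 9 genes, 8 had a peak within 1 kb of one of their TSS in every library, the exception being Myom2, and 59.7% of all protein-coding genes did. The strongest peak anywhere in the window reached the 90th percentile in every library for 4 genes, Ttn, Actn2, Ldb3 and Myom1, against 38.7% of the 18600 genes with a peak in the window. By the median over libraries the genes fell in the order Ldb3 (98.1), Myom1 (97.8), Actn2 (96.6), Ttn (94.9), Tcap (90.8), Myoz2 (90.7), Myom2 (88.6), Csrp3 (87.3) and Nebl (86.9). The ranges over the 6 libraries of each pair of neighbours in this order overlapped. For Myom1 both the place in this group of 4 and the median rest on a region at the TSS of Myl12a, and its other regions reached at most the 91.9th percentile in any library. The median over all genes with a peak was 91.2, so 4 members lay above it and 5 below. The genes also differed in peak density. Nebl, the longest window at 408 kb, had a median of 3.07 peaks per 100 kb, at the 16.5th percentile of all genes. Tcap, the shortest gene, had 33.1 per 100 kb, at the 99.96th percentile, in a window that is mostly neighbouring genes.

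**Figure D1:**
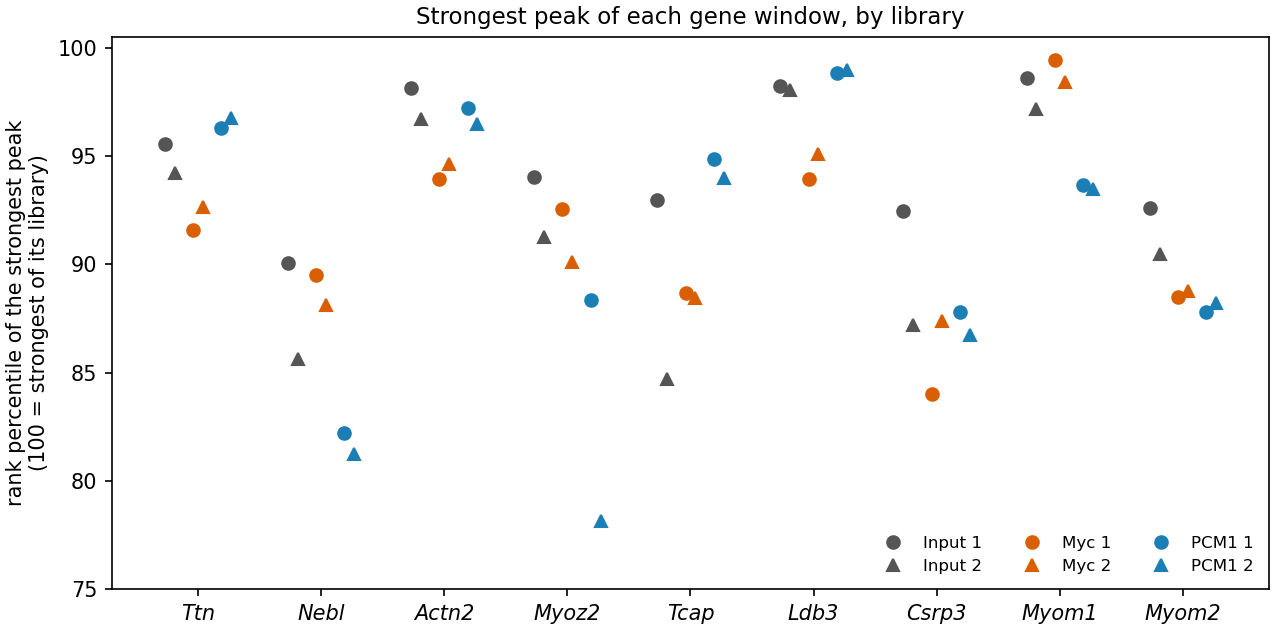
Rank percentile (vertical axis, 100 is the strongest peak of a library) of the strongest peak within 10 kb of each gene, 1 point per library, coloured by group with circles for replicate 1 and triangles for replicate 2. The Myc points of Ttn, Actn2 and Ldb3 lie below all others, and the PCM1 points of Nebl, Myoz2, Myom1 and Myom2 lie lowest.

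Ttn encodes titin, the spring and scaffold of the sarcomere. Its strongest peak stood at 95.5, 94.2, 91.6, 92.6, 96.3 and 96.7. The groups did not overlap: the Myc libraries were lowest, Input lay between and PCM1 was highest. The mean was 3.58 points lower in Myc than in the other 4 libraries (92.1 against 95.7).

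Along the 278.568 kb of Ttn (chr2:76703980-76982547, minus strand) the peaks above the 90th percentile lay at 2 places. One was the 5′ end, with a region just upstream of the TSS (chr2:76982353-76982912) at 94.8, 93.0, 91.6, 92.6, 96.1 and 92.6 and the intron 1 element printed above at 95.5, 94.2, 91.4, 92.1, 95.8 and 96.7. The other lay 175.906 kb into the gene, in intron 223 of the main transcript (347 exons), at chr2:76806333-76806804. This internal region stood at 94.0, 92.3, 86.0, 87.7, 96.3 and 95.1, so that both Myc libraries were below and both PCM1 libraries above the other libraries. An adjoining region in intron 222 (chr2:76806930-76807732) stood at 92.2, 90.1, 79.0, 74.5, 82.4 and 74.5, with Input highest. No annotated TSS of Ttn lies at the internal pair. The summit of the intron 223 element held 454, 137, 102, 109, 169 and 158 reads or fragments, as solved from the deposited fold and p-value. In multiples of each library's genome-wide level this was 115, 134, 70.8, 75.9, 173 and 175. On that scale, too, the groups did not overlap, and PCM1 was highest.

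The remainder of the Ttn window was dotted with weak peaks. Of its 63 regions only 9 were called in every library, and 29 were called in 1 library, 14 of these in Input 1. In 27 of the 63 the summit lay in a coding exon of the main transcript, and none of these 27 was called in every library. Coding exons make up 37.9% of the span of this transcript, and they held 18 of 44 summits in Input 1, 9 of 21 in Input 2, 4 of 19 in Myc 1, 0 of 18 in Myc 2, 13 of 25 in PCM1 1 and 11 of 30 in PCM1 2. The Myc libraries thus had the fewest, with 0 to 4 against 9 to 18. Exonic summits were not counted over all genes, so this order cannot be called particular to Ttn. The strongest exonic peak of any library reached the 64.7th percentile (PCM1 1), so all were weaker than the elements at the 5′ end. When every library was limited to its 75336 strongest peaks, the number the smallest list holds, the exonic summits were 3, 9, 1, 0, 13 and 10. Input 1 fell from 18 to 3 in that comparison, and the Myc libraries still had the fewest.

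**Figure D2:**
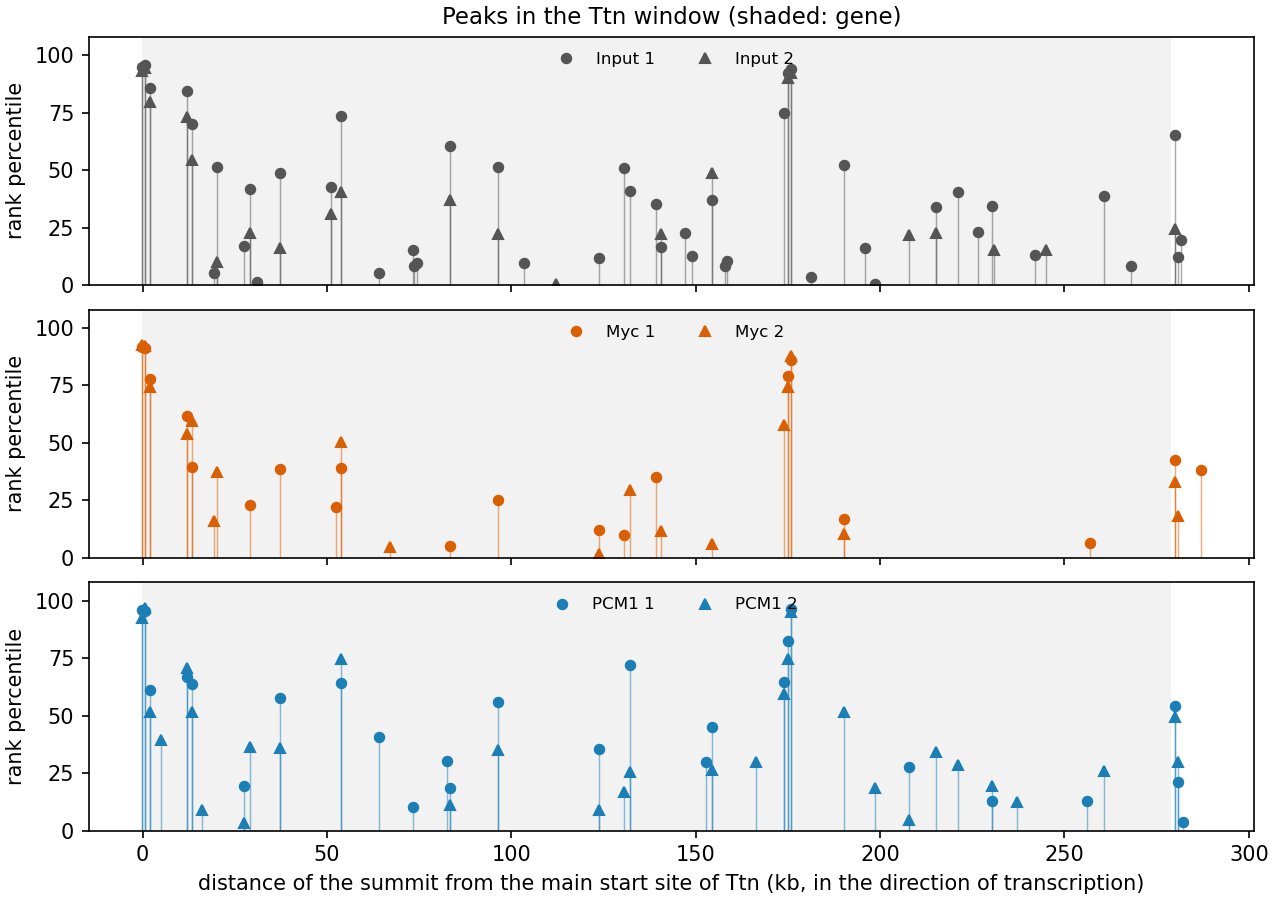
Rank percentile of each peak in the Ttn window against the distance of its summit from the main start site (kb, in the direction of transcription), in 1 panel per group with circles and triangles for the replicates and the gene shaded. Strong peaks stand at the start site and about 176 kb into the gene in all groups, and the weak peaks between them are sparsest in Myc.

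The genes whose 6 strongest-peak percentiles were most like those of Ttn were Itga9, Grb10 and Fgf13, with a mean absolute difference over the 6 libraries of 0.33, 0.396 and 0.483 points.

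Actn2 encodes the alpha-actinin of the Z-disc. Its strongest peak stood at 98.2, 96.7, 93.9, 94.6, 97.2 and 96.5, and both Myc libraries were below the other 4. The strongest region was in no library the promoter. In Input and Myc it lay in intron 1, 2801 bp after the TSS (chr13:12337682-12338288), at 98.2, 96.7, 93.9, 94.6, 97.0 and 96.2. The TSS region (chr13:12340627-12341002) stood lower, at 89.6, 82.9, 88.7, 89.9, 81.7 and 85.5, and here the Myc libraries were not below the others. Further regions in intron 12 (96.9, 93.2, 89.7, 93.9, 97.2 and 96.5, the strongest in both PCM1 libraries) and intron 9 (94.7, 92.4, 91.9, 91.2, 94.3 and 95.8) also ranked above the TSS region in all 6 libraries. The intron 18 region (95.04, 91.0, 85.3, 85.6, 91.7 and 95.3) ranked above it in Input and PCM1 and below it in both Myc libraries. Of the 11 Actn2 regions called in every library, 4 had both Myc libraries lowest, against 7.88% of all regions called in every library.

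Ldb3 encodes the PDZ and LIM domain protein also called Cypher or ZASP, which binds alpha-actinin. Its strongest peak stood at 98.2, 98.0, 93.9, 95.1, 98.8 and 98.98. As at Ttn, the groups did not overlap and ran from Myc through Input to PCM1. This was the intron 5 region (chr14:34573810-34574614), and its summit was 202, 239, 139, 152, 312 and 348 times the genome-wide level. A second region of intron 5 (chr14:34567225-34568983) stood at 89.6, 74.0, 70.1, 72.5, 92.0 and 91.2, or 109, 86.9, 68.0, 73.1, 224 and 236 times the genome-wide level. The intron 9 element with the MEF2 match (chr14:34544458-34544971) stood at 96.1, 96.8, 86.2, 91.8, 97.0 and 98.9. The TSS region (chr14:34588363-34589044) stood at 97.5, 95.2, 92.7, 92.8, 96.8 and 98.1. Of the 13 Ldb3 regions called in every library, 5 had both Myc libraries below the other 4, against 7.88% of all such regions, and 4 had both PCM1 libraries above, against 3.25%.

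**Figure D3:**
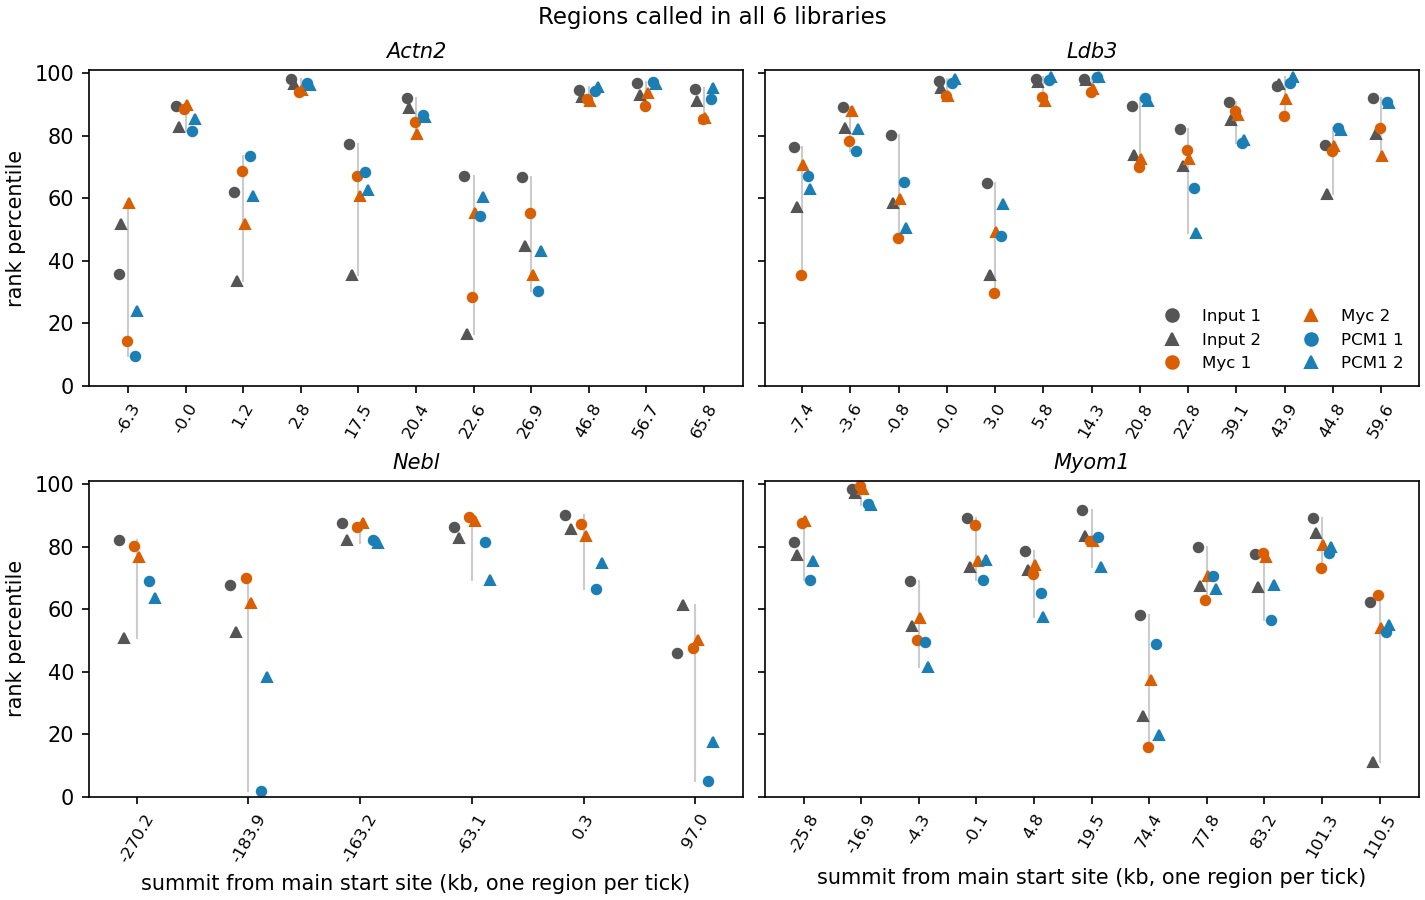
Rank percentile in each library of the regions called in all 6 libraries, ordered along Actn2, Ldb3, Nebl and Myom1 by the distance of the summit from the main start site (kb). Grey lines span the libraries. At Actn2 and Ldb3 the Myc points lie lowest at 4 and 5 regions, and at Nebl and Myom1 the PCM1 points lie lowest at 4 each.

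Tcap encodes telethonin, which joins the ends of titin molecules at the Z-disc. Its strongest peak stood at 93.0, 84.7, 88.7, 88.4, 94.8 and 94.0, with both PCM1 libraries highest. In both PCM1 libraries and in Input 2 the strongest peak was not at Tcap itself but in chr11:98394145-98395515, inside the neighbouring gene Pgap3, a region at 91.4, 84.7, 85.4, 88.5, 94.8 and 94.0. The Tcap TSS region (chr11:98383203-98384009) stood at 93.0, 83.0, 88.7, 88.4, 88.0 and 88.1, and there the groups overlapped. The Pgap3 region reaches past the end of the window, the summit of its strongest peak lies 11451 bp after the TSS, outside the window, and its Myc 2 value is that of a peak wholly outside. A weak region in the single intron of Tcap (chr11:98384103-98384335) was called in both PCM1 libraries, at 37.4 and 36.5, and in no other.

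Csrp3 encodes muscle LIM protein. Its strongest peak stood at 92.5, 87.2, 84.0, 87.4, 87.8 and 86.7, and the groups overlapped. Of its 9 regions 8 were called in every library, the highest share (88.9%) of any member. They included the TSS region (chr7:48847823-48848610) at 92.4, 83.8, 84.0, 87.4, 85.4 and 80.8 and a region 3′ of the gene (chr7:48829084-48829749) at 92.5, 87.2, 80.9, 87.2, 86.3 and 86.7.

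Myoz2 encodes calsarcin-1, which ties calcineurin to the Z-disc. Its one region called in every library was the TSS region (chr3:123034395-123035240), which was also its strongest at 94.0, 91.3, 92.6, 90.1, 88.4 and 78.2. Both PCM1 libraries were lowest, and PCM1 2 lay further below PCM1 1 than PCM1 1 lay below Myc 2. The other 9 Myoz2 regions were missed by at least 1 library.

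Nebl encodes nebulette, a thin filament protein of the cardiac Z-disc, and a shorter LIM-domain protein from an upstream start. The TSS region of the nebulette transcript Nebl-202 (chr2:17460413-17461065) stood at 90.1, 85.6, 87.3, 83.4, 66.6 and 74.7. That of the upstream transcript Nebl-201 (chr2:17730773-17731828), which lies further 5′, stood at 82.2, 50.6, 80.3, 76.7, 69.0 and 63.6. The nebulette TSS ranked higher than the upstream TSS in 5 of the 6 libraries, the exception being PCM1 1. Over the whole window the strongest peak stood at 90.1, 85.6, 89.5, 88.1, 82.2 and 81.3, with both PCM1 libraries lowest. At the element between the start sites printed above (chr2:17623880-17624385) the values were 87.6, 82.2, 86.3, 87.6, 82.2 and 81.3.

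Myom1 encodes myomesin-1. The strongest peak in its window stood at 98.6, 97.2, 99.4, 98.4, 93.6 and 93.5, but this region (chr17:71001738-71003008) is at the TSS of Myl12a, which encodes a myosin light chain, and at the start of a short Myom1 transcript. The region at the main TSS of Myom1 (chr17:71019072-71019819) stood at 89.3, 73.5, 86.9, 75.3, 69.3 and 75.8, with overlapping groups. The strongest intronic region, in intron 5 (chr17:71038684-71039233), stood at 91.9, 83.3, 81.7, 81.9, 83.2 and 73.4.

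Myom2 encodes myomesin-2, the M-protein. It was the one member with no region at its TSS in most libraries: only the Input 1 peak of the intron 1 region (chr8:15058642-15059203) reached within 1 kb of it. The summit of that region lay 1380 bp after the TSS, and the region stood at 91.2, 82.4, 88.5, 88.8, 81.9 and 82.0. A second intron 1 region (chr8:15062562-15063011) stood at 92.6, 90.5, 78.7, 81.1, 87.8 and 88.2, with both Myc libraries lowest. The strongest peak of the window stood at 92.6, 90.5, 88.5, 88.8, 87.8 and 88.2, so that both Input libraries were above the other 4, which is true of 5.55% of all genes.

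Across the 9 genes the strongest peak of both Myc libraries ranked below the other 4 libraries at 3 genes (Ttn, Actn2 and Ldb3), which is true of 6.42% of all genes with a peak. It ranked above them at 0 of 9, against 26.7% of all genes. Both PCM1 libraries were above the other 4 at 3 genes (Ttn, Tcap and Ldb3), against 3.48% of all genes, and below them at 4 (Nebl, Myoz2, Myom1 and Myom2), against 27.7%. The count with PCM1 above was 2 with the gene body only and with 2 kb on either side. There Tcap, whose value rests on the Pgap3 region, was no longer counted. Among the 4 genes with PCM1 below, the value of Myom1 rests on the Myl12a region. Both Input libraries were below at 0 of 9, against 1.61%. With Tcap limited to its body or to 2 kb on either side, its Myc libraries were 0.56 points higher than the others and not lower. When each library was limited to its 75336 strongest peaks, both Myc libraries were lowest at 6 genes (Tcap, Csrp3 and Myom2 in addition), against 13.8% of all genes. The PCM1 libraries were then lowest at Nebl and Myom1 but no longer at Myoz2 and Myom2, against 23.5% of all genes. They were still highest at 3 genes (Ttn, Tcap and Ldb3), but the share of all genes with this order rose to 12.4%. When fold enrichment gave the ranks, both PCM1 libraries were above the other 4 at 0 genes, against 6.37% of all.

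The same orders were counted over regions. Of the 208 member regions 70 (33.7%) were called in every library, against 28.8% of all 169872 regions. Both Myc libraries ranked below the other 4 at 15 of the 70 (21.4%), against 7.88% of all regions called in every library, and above them at 3 (4.29%), against 15.7%. Both PCM1 libraries ranked above at 8 (11.4%), against 3.25%, and below at 15 (21.4%), against 20.6%. The regions of 1 gene lie close together and are not independent. Most of the 70 were distal: 53 lay over 1 kb from every TSS, and of these both Myc libraries were below at 12 (22.6%), against 8.97% of all such regions, and both PCM1 libraries above at 7 (13.2%), against 3.62%. With equal list sizes the Myc libraries were below at 32 of 62 regions (51.6%, against 19.1% of all) and the PCM1 libraries above at 19 (30.6%, against 16.4%). When fold enrichment gave the ranks, the PCM1 libraries were above at 1 of 70 regions, against 5.16% of all.

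Of the 208 member regions 5 (2.40%) were called in both libraries of 1 group and in no other library, against 3.18% of all merged regions. Besides the Tcap intron region in PCM1, these were a Ttn region (intron 43, chr2:76931118-76931471, 42.9 and 31.1) and a Myom2 region (intron 1, chr8:15060845-15061251, 57.5 and 45.7) in Input. In Myc they were a Nebl region (chr2:17585361-17585652, 20.7 and 20.2) and a Myom1 region (chr17:71008709-71009024, 40.1 and 60.8), both in the gene before its main TSS. All 5 were weak, below the 61st percentile.

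The read density around the peaks was higher in the PCM1 libraries than in the other 4 at most member regions. The peak caller MACS2 compares each summit with a local background, which can be solved from the deposited fold and p-value. This background is the mean pileup around the summit, or the genome-wide level where that is higher. It is given here in multiples of the genome-wide level of the library. It includes the reads of the peak itself, so it measures how open the surroundings are as a whole. At the 70 member regions its median was 6.20, 5.91, 6.09, 6.17, 9.30 and 9.87, and at all 48861 regions it was 2.396, 2.305, 2.61, 2.63, 2.62 and 2.70. Both PCM1 libraries were above the other 4 at 56 of the 70 (80%), against 26.8% of all regions. Over 1 kb from every TSS this was 44 of 53 (83.0%), against 30.6%. Both Myc libraries were lowest at 22 (31.4%), against 12.5%. The surroundings of neighbouring regions overlap, so these counts hold fewer than 70 separate measurements.

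By gene, the median was taken over each library's own peaks in the window, so the peaks behind it differ between libraries. It was highest at Ldb3, with 15.6, 15.2, 13.2, 14.2, 26.4 and 28.8, at the 99.6th percentile of the 16616 genes with a peak in every library. The PCM1 libraries were 1.79 times the Input mean there. Ttn stood at 4.29, 4.48, 4.18, 5.59, 8.42 and 7.18 (1.78 times), Tcap at 8.69, 8.02, 8.90, 8.11, 14.6 and 13.2 (1.67 times), and Actn2 at 5.42, 5.46, 5.33, 4.82, 8.90 and 8.84 (1.63 times). At the 9 Ttn regions called in every library the medians were instead 12.4, 12.2, 7.97, 7.99, 15.5 and 17.4. Both PCM1 libraries were highest at 9 of these regions and both Myc libraries lowest at 5. Csrp3 stood at 7.07, 6.23, 6.35, 6.52, 9.74 and 10.4 (1.52 times) and Myom1 at 3.29, 2.96, 3.19, 2.86, 4.46 and 4.34 (1.41 times). In these 6 genes both PCM1 libraries were above the other 4, which is true of 21.5% of all genes. The same held at 6 of the 6 CM markers, 7 of the 12 paralogs, 2 of the 6 endothelial, 1 of the 6 smooth muscle and 0 of the 6 fibroblast markers. Of the other markers with a peak in every library, it held at 1 of 4 skeletal muscle, 0 of 3 epicardial and 0 of 2 immune markers. Among the paralogs the Myoz1 window had a larger ratio than any member, with PCM1 3.84 times the Input mean. Myoz1 had no TSS peak in any library, and peaks of neighbouring genes were not taken out of its window. The ratio may thus not be that of Myoz1 itself. Both Myc libraries were lowest at 2 (Actn2 and Ldb3), against 7.93%. Myom2 stood at 2.97, 4.16, 2.72, 3.83, 4.04 and 6.02, and its groups overlapped. At the 6 Myom2 regions called in every library the groups did not overlap in this way. There PCM1 was above the other 4 at all 6, with medians of 2.97, 3.26, 3.35, 3.93, 4.87 and 5.23. Nebl (1.00 to 1.59) and Myoz2 (1.00 to 1.21) were near the genome-wide level in every library, with no separation, although their TSS regions were called in all 6. Medians near 1.00 lie at the low end of the scale, where little separation could show. The Myoz2 TSS region by itself stood at 3.29, 3.20, 3.78, 2.90, 3.32 and 3.39, with overlapping groups. At the 6 Nebl regions called in every library the medians lay between 1.57 and 1.73, and PCM1 was highest at 0. Over all genes the median was 2.103, 2.68, 2.64, 2.63, 2.77 and 2.86, and the PCM1 libraries were 1.11 times Input.

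**Figure D4:**
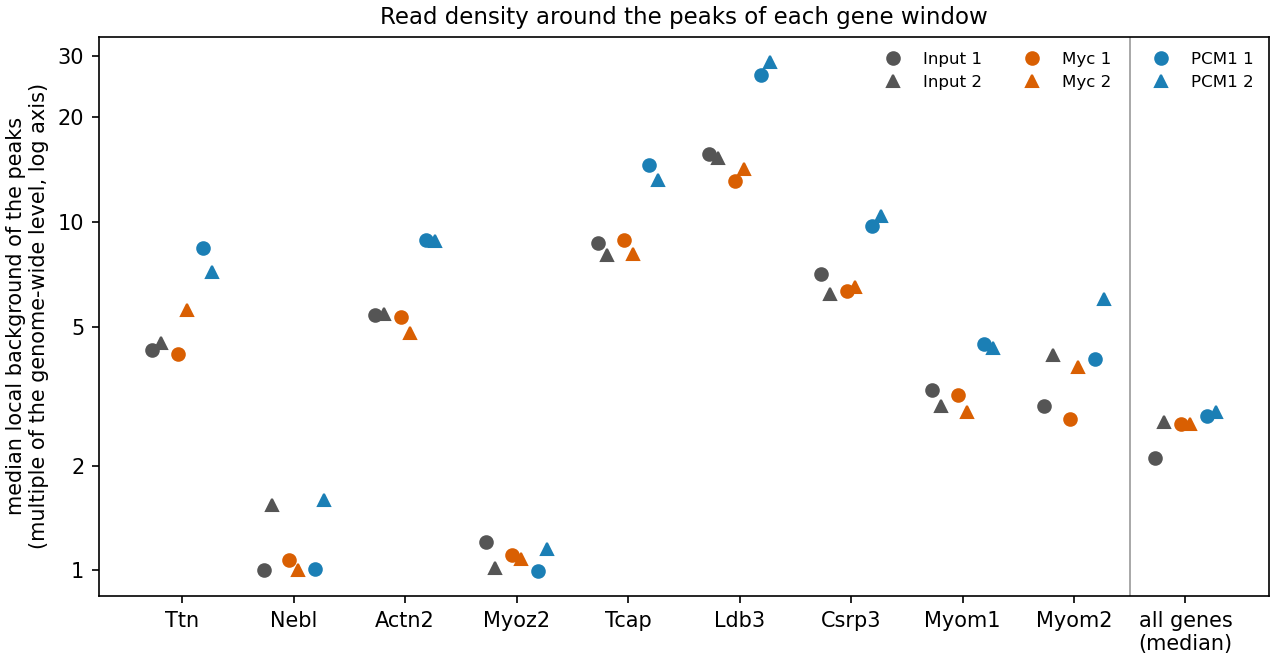
Median local background of the peaks in each gene window (multiples of the genome-wide level of the library, log axis), 1 point per library, beside the median over all 16616 genes with a peak in every library. The PCM1 points stand above all others at Ttn, Actn2, Tcap, Ldb3, Csrp3 and Myom1, and Nebl and Myoz2 stand near 1.

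**Figure D5:**
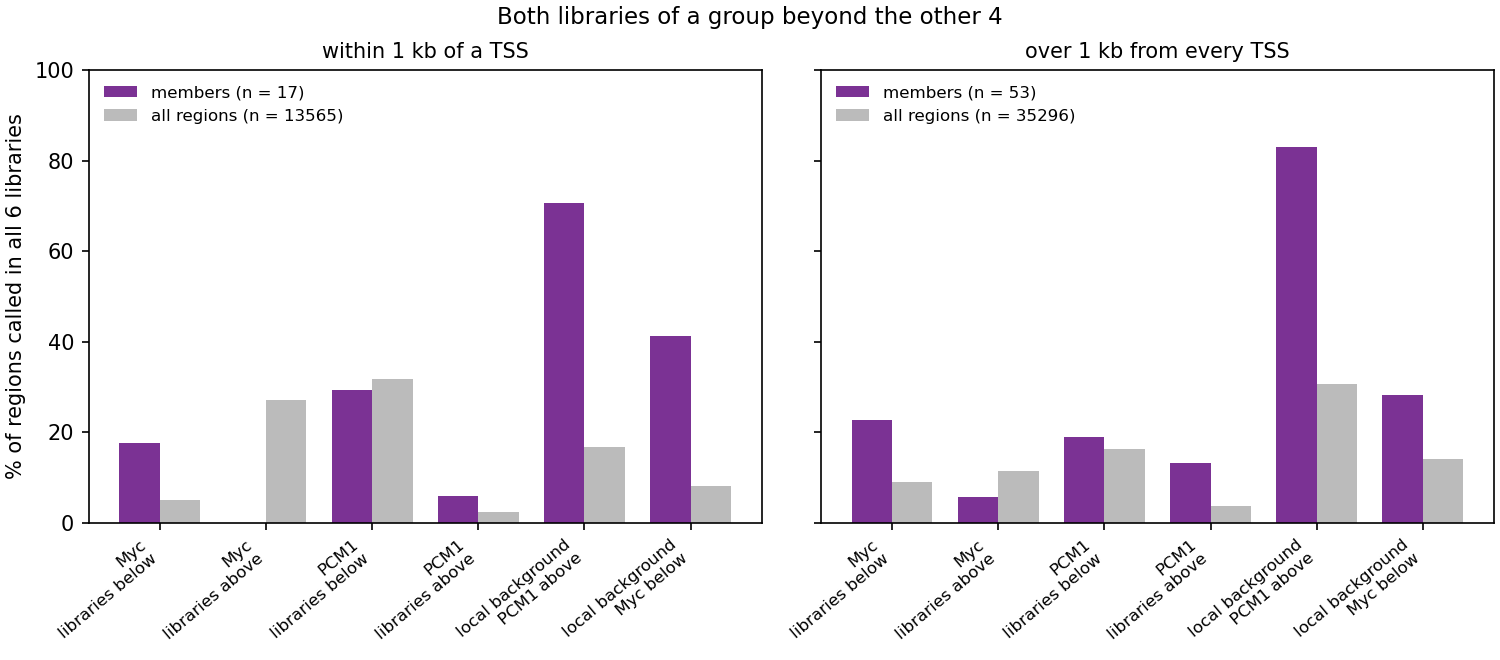
Percent of the regions called in all 6 libraries in which both libraries of a group were below or above the other 4, by rank percentile or by local background, for member regions (purple) and all regions (grey), within 1 kb of a start site and further away. The local background was higher in PCM1 at 70.6% and 83.0% of the member regions, against 16.7% and 30.6% of all regions.

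Other genes of the same structures were compared as a list of 29 Z-disc, I-band and M-band genes. In 27 of them a TSS peak was present in every library, against 59.7% of all genes. By the median over libraries the highest were Ankrd23 (98.8), Cryab (98.7) and Bag3 (98.6), and the lowest were Myot (0), Trim54 (56.1) and Xirp2 (68.4). Both Myc libraries ranked below the other 4 at 11 of the 29, among them Obsl1 and Nrap and the intermediate filament gene Des (92.9, 91.7, 81.2, 86.7, 90.5 and 91.4), against 6.42% of all genes. They ranked above at 0, against 26.7%. Both PCM1 libraries were above at 3, Obsl1 and Trim63 among them, against 3.48%. They were below at 1 of the 29, against 27.7% of all genes. Myot had a peak in 2 libraries, Input 1 (35.9) and Myc 2 (13.8). Local background was higher in both PCM1 libraries at 14 of the 28 with a peak in every library, among them Fhl2 (5.46, 4.86, 4.64, 4.68, 9.76 and 9.78), against 21.5% of all genes.

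The paralogs of the members, several of them genes of skeletal or smooth muscle, were described in the same way. Of 12 paralogs and relatives 8 had a TSS peak in every library, against 59.7% of all genes. Myoz1 and Myoz3 had none in any library, Myom3 had one only in PCM1 1, and Neb, the skeletal muscle relative of Nebl, had one in 4 libraries. Both Myc libraries ranked above the other 4 at 4 of the 12 (Actn3, Myoz1, Myoz3 and Csrp2), against 26.7% of all genes, and below at 1 (Pdlim7, at 97.7, 97.6, 92.3, 93.8, 96.8 and 97.9), against 6.42%. Both PCM1 libraries were below at 4 of the 12, against 27.7%, and above at 1, against 3.48%. The strongest peak of Csrp2, for example, stood at 97.4, 97.1, 99.3, 98.7, 96.1 and 96.5. At Myoz1 and Myoz3 the strongest peaks of the window (93.0, 90.6, 96.2, 97.0, 85.6 and 84.0 at Myoz1) lay away from the TSS of the gene. Actn1, Actn3 and Actn4 had medians of 96.8, 95.2 and 95.3, Csrp1 and Csrp2 of 97.4 and 97.2, and Pdlim3, Pdlim5 and Pdlim7 lay between 87.6 and 99.4 in all libraries. Whether members and paralogs differ was not tested.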

How the data were processed

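The deposited files are 6 MACS2 narrowPeak lists, 1 per library. Per the study's methods and processing notes, the authors checked reads with FastQC (0.11.5), trimmed them, mapped them to mm10 with Bowtie2 (2.3.3.1), marked duplicates with Picard (2.2.1), took out blacklisted regions, shifted reads for the Tn5 offset and called peaks at q 0.05 with MACS2 (2.1.0.20160309). The deposited lists hold 1 library each. The deposited lists give each peak a fold enrichment at the summit (a ratio to the local background), −log10 p-values and −log10 q-values, and an integer score, which was not used here. Read counts per library were not used here, so depth was judged from the genome-wide background. For each peak the pileup and local background were solved from the fold ratio and p-value that the authors deposited; 99.8% to 100% of pileups came out whole within 0.02. Peaks were ranked by q-value within a library.

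Gene windows were the GENCODE M21 body and 10 kb on either side, and an overlap of 1 bp counted. The main transcript was the one with the longest coding sequence. Regions were peaks merged over libraries. An order was counted when both libraries of a group lay below or above the other 4, and no test between groups was run. Python 3.11.15, numpy 2.4.6, pandas 2.3.3, scipy 1.17.1, pysam 0.24.0 and bedtools 2.31.1 were used, and the calculations were tested on simulated data. The genes named are all members, the paralogs, the 3 highest and 3 lowest of the Z-disc list and the 3 genes most like Ttn. Others (Des, Obsl1, Nrap, Trim63 and Fhl2) were named after their values were seen, and an item of the Z-disc list is not reported here by name. Members, lists and tests were chosen with earlier results of these data known. Alternatives were q-value, list size, ranking measure, window and each library left out; the ranking by pileup and the counts over regions and over the Z-disc list were added after seeing the data.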

Additional observations from a re-analysis of the deposited data

How the results depend on the processing

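No paired analysis was possible because no result comes from a test. The counts of members with Myc lowest (3) and PCM1 highest (3) moved as follows. With equal list sizes Myc was lowest at 6 members, at 32 member regions and at 19 genes of the Z-disc list. PCM1 was highest at 3 members and at 19 member regions. The shares over all genes or regions rose too. Myc was then lowest at 13.8% of genes and 19.1% of regions, and PCM1 was highest at 12.4% of genes and 16.4% of regions. The share of regions called in every library was then 40.3%, and the median percentile over members was 90.4 in Input, 86.9 in Myc and 93.0 in PCM1. Ranked by fold enrichment, PCM1 was highest at 0 members (6.37% of all genes) and 1 member region (5.16% of all), and the medians were 86.9, 82.8 and 78.7. Ranked by solved pileup, PCM1 was highest at 14 member regions (3.05% of all), and the medians were 92.3 in Myc and 96.0 in PCM1. In the main ranking, PCM1 had the highest of these medians at 93.6, above Input at 92.6 and Myc at 90.8. The PCM1 median fell to 88.3 with the gene body only, with 2 kb on either side and with the summit inside the window. Input and Myc stayed at 92.6 and 90.8 there, so PCM1 went from highest to lowest. Without peaks at another TSS PCM1 was also lowest, at 88.3 against 91.7 for Input and 89.2 for Myc. Of the differences between Myc and the other 4 libraries at single genes, that of Csrp3 reversed to 6.73 when ranked by fold and that of Tcap to 0.56 with the body only or 2 kb on either side. Leaving out each library in turn, the member regions with Myc lowest ranged from 15 to 29 (23 without Input 2, against 15.2% of all regions, and 29 without Myc 2, against 15.1%), those with PCM1 highest from 8 to 19 (19 without Input 1, against 13.0% of all, and 13 without PCM1 1 or PCM1 2, against 8.001% and 8.49%), and the Z-disc genes with Myc lowest from 11 to 17 (17 without Input 2, against 10.9% of all genes). The count of regions with a higher local background in PCM1 ranged from 55 to 61 over these alternatives, and with equal list sizes it was 51 of 62 (26.8% of all). The cause of these changes was not tested. With 2 libraries per group and depths that differ 4.38-fold, a weak region missing from a list cannot be told from one below that library's detection limit.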
